A study of Mus musculus with 4 samples.

Results

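The type I interferon response was described here through 9 genes, given by name: Stat2, Irf7, Irf9, Isg15, Ifit1, Ifit2, Ifit3, Rsad2 and Usp18. All 9 were found by symbol among the 16015 genes listed, and all 9 passed the filter on low values, which kept 13983 genes for testing. The libraries came from colonic epithelial cells of C57BL/6 mice aged 2 to 4 months. All mice drank 3% dextran sodium sulfate (DSS), a polysaccharide that injures the colonic epithelium, during 5 days, followed by 2 days of plain water, and the cells were taken on day 7. The controls were 2 mice labelled WT. They carried the floxed Bmal1 fl/fl alleles, going by the description of the strains, and whether they received tamoxifen is not given in the sources used here. The 2 Bmal1 cKO mice were Villin-CreERT2; Bmal1 fl/fl mice given tamoxifen on 5 days, so that Cre was driven by the promoter of Villin, which is active in the intestinal epithelium. The comparison asked how the transcripts of the colonic epithelium differ after DSS injury when Bmal1, the activator of the circadian clock, has been deleted there.

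Type I interferons bind the receptor pair IFNAR1 and IFNAR2, and the kinases JAK1 and TYK2 then phosphorylate STAT proteins. STAT2 joins IRF9 and a partner STAT in the complex ISGF3, which enters the nucleus and binds the interferon-stimulated response element in front of its target genes. Among these targets, IRF7 is a transcription factor that amplifies interferon production, the IFIT proteins and RSAD2 (viperin) restrict viruses, ISG15 is a ubiquitin-like modifier, and USP18 removes ISG15 from proteins and holds back signalling at the receptor. Intestinal epithelial cells respond to type I as well as type III interferons, and many of the targets also answer to interferon gamma.

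The response element was searched as GAAA, then a pair of any bases, then GAAA, on either strand (TTTC, a pair of any bases, TTTC on the opposite one), in windows from 250 bases before to 50 bases after each start site in the RefSeq promoter table (GRCm38.p6). The 8 members with an entry in that table had 10 windows, since Irf9 and Ifit2 have 2 each. Of these 10 windows 5 held the letters, each from a different member, against 3.44% of all 32851 windows. The stretches upstream of the start site that carry them are printed 5′ to 3′ on the strand of the gene, with the matching letters in capitals. They show where these members resemble each other. The members were named as interferon response genes, so this resemblance is not independent of their choice.
Stat2, chr10:128270251-128270310, plus strand: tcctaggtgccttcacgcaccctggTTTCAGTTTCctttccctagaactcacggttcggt
Isg15, chr4:156200850-156200921, minus strand: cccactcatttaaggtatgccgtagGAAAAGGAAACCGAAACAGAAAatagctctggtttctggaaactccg
Ifit1, chr19:34640760-34640838, plus strand: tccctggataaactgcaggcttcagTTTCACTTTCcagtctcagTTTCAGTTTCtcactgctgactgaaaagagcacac
Ifit3, chr19:34583348-34583441, plus strand: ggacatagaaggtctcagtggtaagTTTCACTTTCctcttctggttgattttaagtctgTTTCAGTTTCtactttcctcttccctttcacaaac
Rsad2, chr12:26456538-26456597, minus strand: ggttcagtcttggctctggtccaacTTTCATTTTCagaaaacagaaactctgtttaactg
Isg15 carried 3 matches that overlap each other, Ifit1 and Ifit3 carried 2 each, and Stat2 and Rsad2 carried 1 each. The windows of Irf7, Irf9 and Ifit2 did not hold these letters. The letters TTCNNNGAA, bound by STAT dimers, were in 8.3% of all windows and in the window of 1 member, Ifit2. The letters CACGTG, the E-box that BMAL1 and CLOCK bind, were in 7.15% of all windows and in the window of none of the 8 members. These matches describe the letters alone.

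The libraries held 10312791 to 14156639 reads on the listed genes. The values are normalized counts, in which 1 read was worth 0.845 to 1.35 depending on the library. Arntl, the gene of BMAL1, was at 358 and 342 in the controls against 342 and 289 in the Bmal1 cKO libraries. This was a log2 fold change of -0.16 (SE 0.14, adjusted p = 0.389 by limma). It was -0.48 after the GC correction described below (adjusted p = 0.0581), -0.38 with library totals for scaling, and -0.04 to -0.28 without 1 mouse, and it passed in none of these. The count covers the whole gene, exons outside the deleted part included, and exons were not counted one by one. These values did not show the deletion, and the reason was not tested. The paper reports loss of BMAL1 in the knockout epithelium by immunoblot and staining. The words "with Bmal1 deleted" below name the genotype of the mice. Summed leukocyte markers were 30687 to 34047 in the control and 5681 to 5961 in the Bmal1 cKO libraries, summed stromal and endothelial markers 3447 to 15783 and 529 to 604, and summed colonic epithelial markers 228741 to 300722 and 187811 to 211693. Muc2 alone was at 62753 and 101740 in the controls against 24129 and 37690 in the Bmal1 cKO libraries. Of the 14 epithelial markers, 2 were higher and 5 lower at an adjusted p under 0.05 by limma, and 5 and 2 after the correction below. Over all genes these shares were 29.0% and 27.7%, and 16.4% and 17.0%. Control mouse 1 was above control mouse 2 for 28 of 34 leukocyte markers (Jchain 7216.5 and 59.3), but S100a8 was at 1424 and 8065.5. In bulk libraries, fewer cells of a type and less RNA per cell cannot be told apart. The fold change of a gene was also related to the GC content of its transcripts, with a Spearman correlation of -0.62 across the genes tested and a median log2 fold change that ran from 1.17 in the tenth of genes with the lowest GC content to -1.35 in the tenth with the highest. Each member's fold change is therefore given also after a correction for GC content and length, and those of the other called genes are as well.

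**Figure D1:**
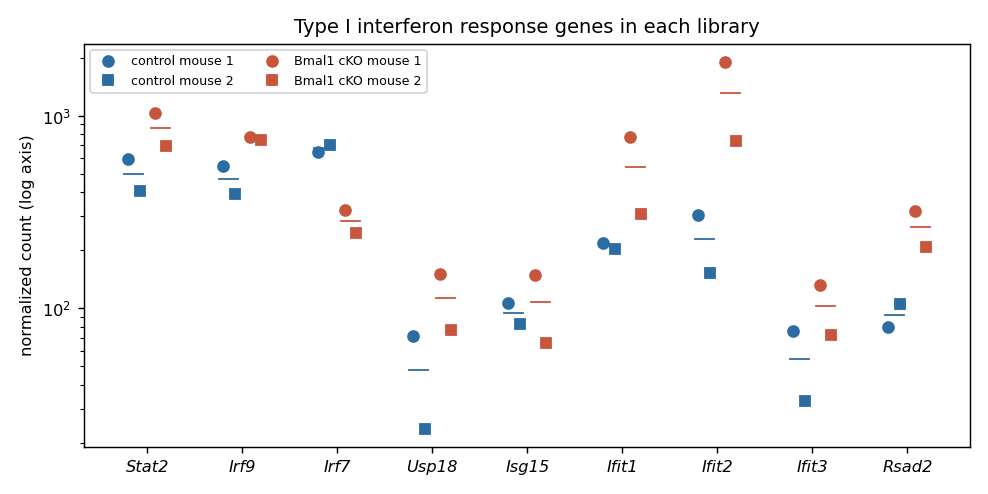
Normalized count of each member (vertical axis, logarithmic) in the 2 control and the 2 Bmal1 cKO libraries, with each group's mean as a short line. Irf7 was the member with both Bmal1 cKO libraries under both controls, and Isg15 and Ifit3 were the members whose groups overlapped.

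After DSS injury, 4 of the 9 members were higher in the Bmal1 cKO mice, 1 was lower and 4 did not pass the test (limma on log2 of the normalized count plus 1, adjusted p under 0.05 over all genes tested). Ifit2, Rsad2, Stat2 and Irf9 were the higher genes and Irf7 the lower one. Over all genes tested 29.0% were called higher and 27.7% lower, so the counts of members stand against a background in which many genes passed in either direction. These shares depend on the scaling: with library totals 3091 of all genes were called higher and 4885 lower, in place of 4059 and 3871. The median log2 fold change of the 9 members was 0.96, beside -0.04 over all genes tested. Both Bmal1 cKO libraries lay above both control libraries for 6 members, against 40.3% of all genes, and below them for 1 member, against 41.7% of all genes. With GC content and length corrected for, 1 member was called higher (Irf9) and 1 lower (Irf7), where 16.4% and 17.0% of genes were called higher and lower.

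Both members that are subunits of ISGF3 were higher in the Bmal1 cKO mice. Stat2 (chr10:128270559-128292849, plus strand, GENCODE exons of GRCm38), the subunit that carries the activation domain, was counted at 595 and 404 in the controls, against 1037 and 693 in the Bmal1 cKO libraries (normalized counts, mouse 1 first, as throughout). The groups did not overlap, but the lower Bmal1 cKO mouse and the higher control mouse were close to each other. The log2 fold change was 0.79 (SE 0.26, adjusted p = 0.0484 by limma), just inside the threshold, and after the GC correction it was 0.90 (adjusted p = 0.0526), just outside it. Without any one of the 4 mice the call was lost, with log2 fold changes from 0.50 to 1.08 and adjusted p from 0.067 to 0.249 by limma (the lowest without Bmal1 cKO mouse 1, and 0.51 without control mouse 2), and it was lost with library totals for scaling (0.56, adjusted p = 0.131). In edgeR (adjusted p = 0.0646), with TMM scaling (0.0504), with a pseudocount of 5 (0.0508) and without the filter (0.0507) it was also just outside, so that 5 of 11 alternatives with all mice kept the call.

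Irf9 (chr14:55603571-55610030, plus strand), the subunit that recognises the response element, was counted at 545 and 392 in the controls, against 770 and 745 with Bmal1 deleted. The Bmal1 cKO libraries were nearly equal and both above the controls. This was a log2 fold change of 0.71 (SE 0.18, adjusted p = 0.0192 by limma) and 0.72 after the correction (adjusted p = 0.0340), so Irf9 was the member called higher on both scales. The call was lost without Bmal1 cKO mouse 1 (adjusted p = 0.12 by limma) or mouse 2 (adjusted p = 0.107), and with library totals for scaling (0.49, adjusted p = 0.0721). Irf9 shares 123 exon bases, 4.0% of its own, with the neighbouring gene Rnf31 on the same strand.

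Irf7 (chr7:141262706-141266481, minus strand), which drives the later wave of interferon genes, went the other way. It was counted at 650 and 703 in the controls, against 324 and 246 with Bmal1 deleted, with the groups well apart. It fell by 1.26 on the log2 scale (SE 0.17, adjusted p = 0.00238 by limma). Irf7 has a GC content of 56.0%, and the genes of its GC class had a median log2 fold change of -0.84. The corrected value was -0.56 (adjusted p = 0.0381), still past the threshold and less than the uncorrected one. It kept its call without any one mouse, with adjusted p from 0.016 to 0.0337 by limma. Leukocyte markers fell in the same libraries, and the part of leukocytes in the Irf7 difference was not tested.

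Usp18 (chr6:121245906-121270917, plus strand), the brake on the receptor and the protease for ISG15, was counted at 71.8 and 23.7 in the controls, against 150 and 77.0 with Bmal1 deleted. The controls differed from each other by a factor of 3.03, more than the 2.38 between the group means. Its difference of 1.36 on the log2 scale (SE 0.61, adjusted p = 0.111 by limma) did not pass, with a 95% interval from -0.19 to 2.90, and it was 1.37 after the correction (adjusted p = 0.145). It was 0.58 without control mouse 2, 2.14 without control mouse 1 and 0.88 without Bmal1 cKO mouse 1, and passed in none of these. Of its exon bases, 124 (7.0%) lie opposite the antisense gene Gm44148, whose reads cannot be told apart without strand. Usp18 has no entry in the promoter table.

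Isg15 (chr4:156199424-156200818, minus strand), the modifier itself and the member with the most matches to the response element, did not separate the groups. It was counted at 106 and 83.0 in the controls, against 149 and 66.2 with Bmal1 deleted, so that the highest and the lowest value both came from Bmal1 cKO mice. The log2 fold change was 0.08 (SE 0.43, adjusted p = 0.881 by limma), with a 95% interval from -0.9957 to 1.16, and the corrected value was 0.43 (adjusted p = 0.481). The sign turned when 1 mouse was left out, to -0.10 without control mouse 2 and to -0.50 without Bmal1 cKO mouse 1. With library totals for scaling, which moved the median of all genes by -0.22, Isg15 was at -0.14 and so moved with the median.

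The 3 IFIT genes, which encode proteins that bind viral RNA and lie together on chromosome 19, were all on the higher side, and 1 of them passed the test. Ifit2 (chr19:34550694-34576419, plus strand) was counted at 303 and 152 in the controls, against 1891 and 734 with Bmal1 deleted. Bmal1 cKO mouse 1 was far above the rest, and mouse 2 was still above both controls. It rose by 2.45 on the log2 scale (SE 0.52, adjusted p = 0.0117 by limma), the largest among the 9 members. Ifit2 has the lowest GC content of the members, 42.0%, in a class with a median of 1.17, and its corrected value of 1.50 was no longer called (adjusted p = 0.0783). Its call was also lost without Bmal1 cKO mouse 1 (adjusted p = 0.0714) or control mouse 2 (adjusted p = 0.0914).

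Ifit1 (chr19:34640871-34650009, plus strand) was counted at 219 and 202 in the controls, against 770 and 307 with Bmal1 deleted. The controls were nearly equal and the Bmal1 cKO mice differed by a factor of 2.51. Its difference of 1.20 on the log2 scale (SE 0.42) missed the threshold in limma (adjusted p = 0.0563) and passed it in DESeq2 on the recovered reads (log2 fold change 1.35, adjusted p = 0.00637). After the GC correction it was 0.43 (adjusted p = 0.471). Without Bmal1 cKO mouse 1 it was 0.54 (adjusted p = 0.0946 by limma), and without Bmal1 cKO mouse 2 it was 1.87 and passed (adjusted p = 0.0166). Ifit3 (chr19:34583531-34588731, plus strand) was counted at 76.0 and 33.0 in the controls, against 133 and 73.0 with Bmal1 deleted, and the groups overlapped. Its log2 fold change was 0.96 (SE 0.51, adjusted p = 0.159 by limma) and 0.61 after the correction (adjusted p = 0.406). It was 0.37 without control mouse 2, 1.55 without control mouse 1 and 0.53 without Bmal1 cKO mouse 1, and passed in none of these. The value is uncertain because 18.5% of the 150-base windows of its transcripts also occur in the near copy Ifit3b. For Ifit1, 1.2% of windows are shared with Ifit1bl2.

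Rsad2 (chr12:26442746-26456452, minus strand), an enzyme that makes a chain terminator of viral RNA synthesis, was counted at 80.3 and 105 in the controls, against 319 and 208 with Bmal1 deleted. The groups were clearly apart. It rose by 1.48 on the log2 scale (SE 0.28, adjusted p = 0.00789 by limma), the smallest adjusted p among the members that rose. Its GC class had a median of 0.79, and the corrected value was 0.71 (adjusted p = 0.109). The call was lost without Bmal1 cKO mouse 1 (adjusted p = 0.0626 by limma) or control mouse 1 (adjusted p = 0.0664).

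**Figure D2:**
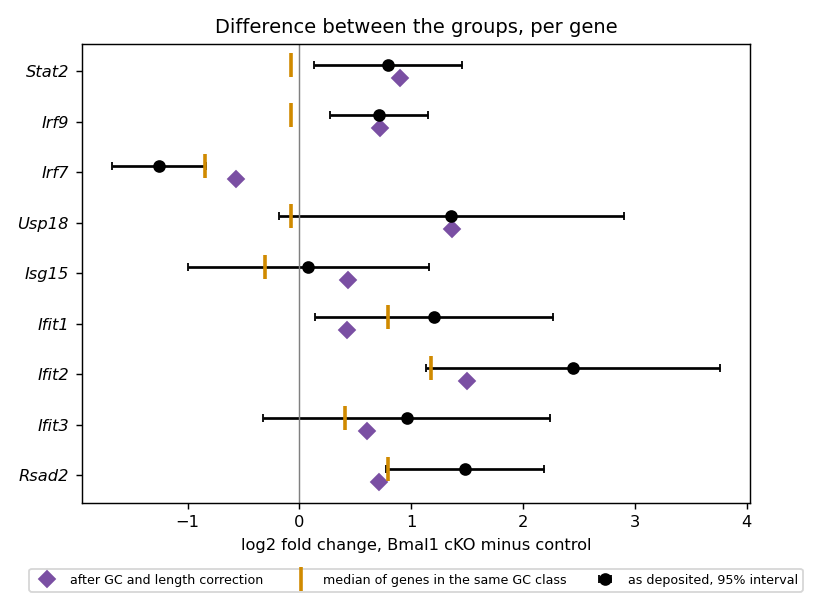
Log2 fold change of each member, Bmal1 cKO minus control (horizontal axis), as black points with 95% intervals from limma, as purple diamonds after the GC and length correction, and beside the median of the gene's GC class as an orange mark. Ifit2, Rsad2 and Ifit1 moved towards 0 with the correction and Irf7 did too, while Stat2, Irf9 and Usp18 stayed nearly where they were.

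The members differed in how much of their fold change the GC content shared. Stat2, Irf9 and Usp18 lie between 50.9% and 51.9% GC, in a class with a median of -0.07, and their values barely moved. Ifit1, Ifit2 and Rsad2 lie between 42.0% and 43.9%, in classes with medians of 0.79 and 1.17. In all, 8 of the 9 members lay above the median of their own GC class, and Irf7 lay below it. Whether the relation to GC content arose in the libraries or in the cells was not tested.

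**Figure D3:**
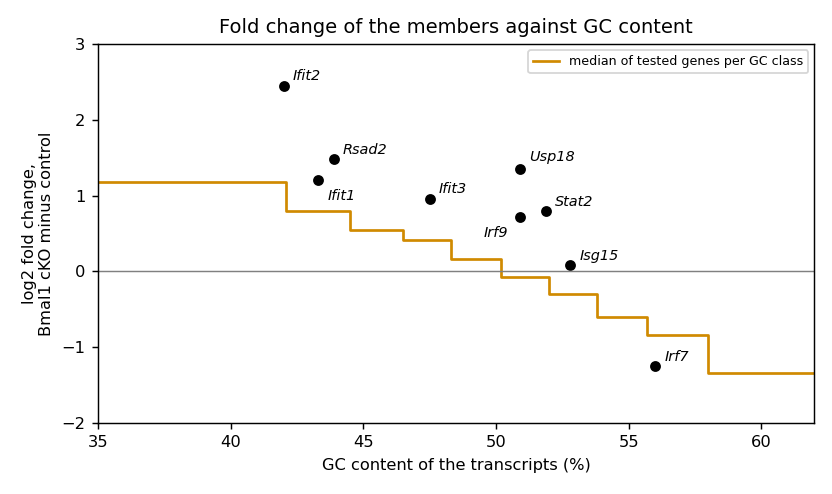
Log2 fold change of the members (points, vertical axis) against the GC content of their transcripts in percent (horizontal axis), with the median of all tested genes in each of 10 GC classes as an orange line. The line falls from 1.17 to -1.35, 8 members lie above it and Irf7 lies below it.

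Within the groups the members also moved together. Bmal1 cKO mouse 1 was above Bmal1 cKO mouse 2 for 9 of the 9 members, against 49.5% of all genes tested, by factors from 1.03 for Irf9 to 2.58 for Ifit2. Control mouse 1 was above control mouse 2 for 7 of the 9, against 51.1% of all genes, the exceptions being Irf7 and Rsad2. Outside the members the same order of the mice was seen in some lists, with Bmal1 cKO mouse 1 higher for 15 of 15 interferon-inducible GTPases and 46 of 52 other induced effectors, and control mouse 1 higher for 14 and 38 of them. Other pathway lists were mixed, with Bmal1 cKO mouse 1 higher for 2 of 6 other STAT genes, 8 of 15 sensors and adaptors, 5 of 9 genes of restraint and 6 of 9 receptor and kinase genes. Control mouse 1 was also higher for 28 of 34 leukocyte and 11 of 12 stromal and endothelial markers, whose part in the order of the control mice was not tested. Summed over the members, the libraries held 2646 and 2099 normalized counts from the controls and 5543 and 3149 with Bmal1 deleted. Without Bmal1 cKO mouse 1, the members called higher had smaller log2 fold changes, of 1.77 for Ifit2, 1.17 for Rsad2, 0.69 for Irf9 and 0.50 for Stat2. In the same fit Isg15 was at -0.50 and Irf7 at -1.45.

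Per kilobase of exon, Irf7 was the most abundant member in the control mice and one of the middle ones in the Bmal1 cKO mice. In the controls its level was 283 normalized counts per kilobase on average, above Irf9 at 151, Isg15 at 125 and Stat2 at 114, whose ranges over the mice overlapped from 1 to the next. Below Stat2, and apart from it, Ifit1 followed at 79.3, Ifit2 at 59.7, Ifit3 at 31.3, Usp18 at 27.0 and Rsad2 at 24.5, again with overlapping neighbours. In the Bmal1 cKO mice the mean level of Ifit2 was 344 per kilobase, with 495 in mouse 1 and 192 in mouse 2. Irf9 at 244, Ifit1 at 203, Stat2 at 197, Isg15 at 142 and Irf7 at 119 came next, each overlapping its neighbour, and Rsad2 at 69.7, Usp18 at 64.2 and Ifit3 at 58.9 lay lower. The step from Irf7 down to Rsad2 was the 1 place in that order where neighbouring ranges did not overlap.

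The genes whose pattern over the 4 libraries was nearest to the mean of the members were found by the root mean square difference of log2 values centred on each gene. With a mean normalized count of 100 or more required, they were Zfp52 at 0.04, Psmb9 at 0.04, Samhd1 at 0.08, Abi2 at 0.08 and Oasl2 at 0.10. Psmb9 encodes a subunit of the immunoproteasome, Samhd1 an enzyme that degrades dNTPs, and Oasl2 a relative of the oligoadenylate synthetases. Only Oasl2 of these nearest genes is on the lists of other pathway genes used here, and Zfp52, the nearest of all, is not. For the members themselves the same measure ran from 0.09 for Stat2 to 1.09 for Irf7. It rests on 4 libraries and is given as a description.

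**Figure D4:**
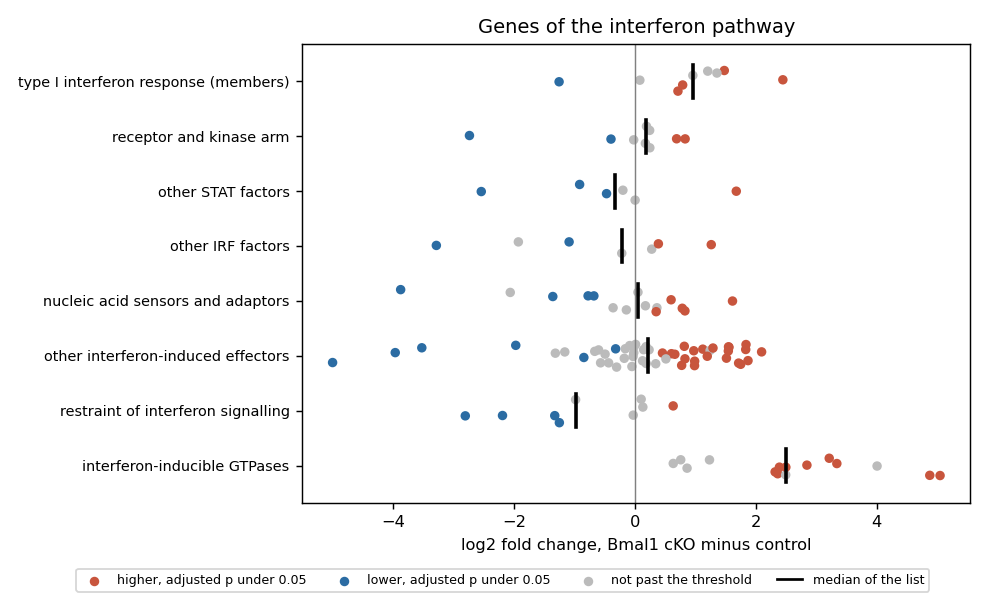
Log2 fold change, Bmal1 cKO minus control (horizontal axis), of the tested genes in the members and 7 lists of other pathway genes, with the call of each gene in colour and the median of each list as a black line. The genes higher and lower lie side by side in most lists, and the 15 interferon-inducible GTPases are all on the higher side before the GC correction and 14 of them after it.

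The other genes of the pathway moved in both directions. Of 113 tested genes outside the members, 42 were higher and 21 were lower in the Bmal1 cKO mice, with a median log2 fold change of 0.19, where 29.0% and 27.7% of all genes were called. After the correction 30 were higher and 15 lower, beside 16.4% and 17.0% of all genes. The counts of the single lists stand against the same shares, and several of them are close to these. Below, a signed value at which a gene was higher or lower is its log2 fold change. Of the ligands, the 2 listed were Ifnk with 2 and 4 reads in the control and 6 and 6 in the Bmal1 cKO libraries, and Ifng with 2 and 0 against 11 and 4, both under the filter for testing.

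At the receptor, 2 of 9 genes were higher and 2 lower, and the same numbers were called after the correction, with Tyk2 in place of Jak2 among the higher genes. Ifnar2, the chain of the type I receptor that binds the ligand first, fell from 270 and 176 normalized counts to 28.8 and 35.1. Its log2 fold change was -2.74 (SE 0.31, adjusted p = 0.0015 by limma) and -2.73 after the correction (adjusted p = 0.00502). Its partner Ifnar1 had 718 and 689 against 830 and 838, a log2 fold change of 0.25 that did not pass (adjusted p = 0.0742 by limma). Ifngr1, the ligand-binding chain of the interferon gamma receptor, was higher at 0.83 (adjusted p = 0.00135, corrected 0.53), and Ifngr2, its signalling chain, was lower at -0.40 (adjusted p = 0.0147, corrected -0.51), both called on both scales. Of the type III receptor, Ifnlr1 had a log2 fold change of 0.17 and Il10rb one of 0.24, and neither passed. Among the kinases, Jak2 was higher at 0.69 (adjusted p = 0.00648) but at -0.12 after the correction, Jak1 had a value of 0.19 and Tyk2 one of -0.02, which became 0.72 and passed after the correction (adjusted p = 0.0078). Leukocyte markers were lower beside Ifnar2, with 22 of 29 tested markers called lower and 2 of the 34 listed ones, Cd2 and Klrb1c, at 0 reads in both Bmal1 cKO libraries, and their part in its fall was not tested.

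Of the 6 other STAT genes, 1 was higher and 3 were lower, with log2 fold changes from -2.54 to 1.68, and after the correction 1 was higher and 2 were lower. The other IRF genes also moved in both directions. Irf2, a repressor of interferon genes, was higher at 0.39 but at -0.30 after the correction. Irf3, which turns on the first interferon genes after viral sensing, was lower at -1.09 and at -0.21 after the correction, where it was not called. Irf5, a factor of myeloid cells, was lower at -3.29 and at -2.47 after the correction, where it was not called (adjusted p = 0.0698). Irf4 of lymphocytes had -1.93 with overlapping groups, and Irf1 and Irf8 had 0.28 and -0.22 and were called higher after the correction at 0.47 and 0.59.

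Of 15 tested sensors of nucleic acids and their adaptors, 5 were higher and 4 lower, and 2 and 1 after the correction. Tlr3, the endosomal sensor of double-stranded RNA, was higher at a log2 fold change of 1.61 (adjusted p = 0.000533 by limma) and Ddx58 (RIG-I) at 0.83 (adjusted p = 0.0282). Zbp1, a sensor of Z-form nucleic acids, was lower at -1.36 (adjusted p = 0.0225), and Ticam1, the adaptor of Tlr3, at -0.78 (adjusted p = 0.00943). Of those 4, Tlr3 was still called after the correction, at 0.45, while Ddx58 at 0.35, Zbp1 at -1.19 and Ticam1 at -0.03 were not.

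The 52 other induced effectors held 22 genes that were higher and 6 that were lower, with a median of 0.21, and 15 and 6 after the correction. Ifi44 was counted at 51.5 and 26.3 in the controls and at 318 and 81.1 with Bmal1 deleted, a log2 fold change of 2.10 (adjusted p = 0.0496 by limma) that was 0.95 and not called after the correction (adjusted p = 0.331). Ifit1bl1, a relative of Ifit1, rose from 1413 and 1504 to 6697 and 4252, or by 1.87 on the log2 scale (adjusted p = 0.00159), and by 1.08 after the correction (adjusted p = 0.0209). Ifitm1, a membrane protein that blocks virus entry, fell from 1239 and 426 to 28.8 and 16.2, a log2 fold change of -5.01 (adjusted p = 0.00143) and of -4.86 after the correction. Ifi27l2a went from 392 and 31.3 to 9.26 and 4.05 (log2 fold change -3.97, adjusted p = 0.0368 by limma), and its corrected value of -3.60 was not called (adjusted p = 0.0709). The stromal and endothelial markers, of which 11 of 12 were called lower, fell in the same libraries, and their part in these falls was not tested.

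Of the 9 genes that restrain interferon signalling, 1 was higher and 4 were lower. Socs3, an inhibitor of JAK kinases, fell from 2039 and 1501 normalized counts to 219 and 283, a log2 fold change of -2.81 (adjusted p = 0.000542 by limma) and of -1.73 after the correction. Ptpn6, a phosphatase most abundant in blood cells, was lower at -2.19 (adjusted p = 0.00175) and at -1.64 after the correction. Pias1 was higher at 0.63 and at -0.31 after the correction, where it was not called. The 15 tested interferon-inducible GTPases, which answer mainly to interferon gamma, held 9 that were higher. All 15 had a log2 fold change above 0, or 14 after the correction, with a median of 2.50. After the correction 7 were higher, with a median of 1.77, and Iigp1 and Igtp had the largest rises among those with a mean of 100 or more, at 5.05 and 3.34 on the log2 scale and at 3.87 and 3.20 after the correction.

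**Figure D5:**
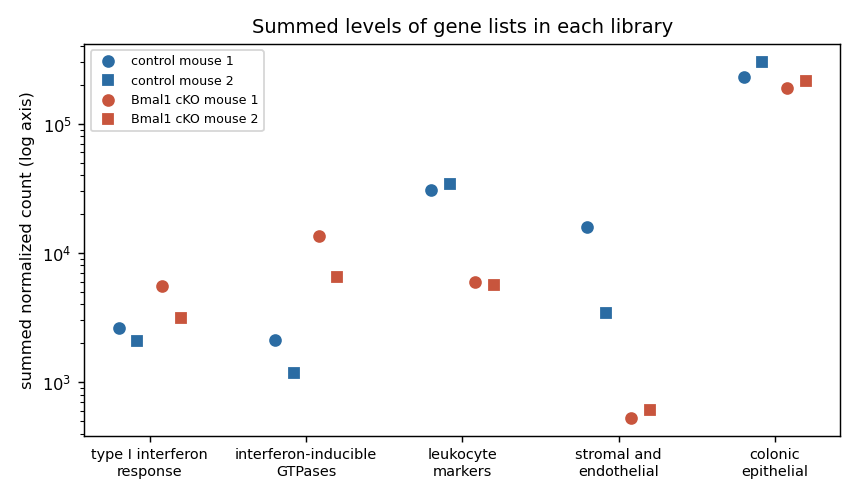
Summed normalized counts (vertical axis, logarithmic) of the 9 members, the interferon-inducible GTPases and 3 lists of cell type markers in each library. The members and the GTPases were higher in both Bmal1 cKO mice, with mouse 1 above mouse 2, and the leukocyte and stromal markers were lower in both.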

How the data were processed

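RNA from colonic epithelial cells of 2 control and 2 Bmal1 cKO mice was sequenced as paired-end reads. Per the study's methods the authors aligned reads to GRCm38 with STAR and used DESeq2; the counter and its strand setting are not given in the sources used here. The authors deposited a normalized count (a signal value) per gene and library together with their own fold changes and p-values, which were not used. Whole reads could be recovered for 100% of values (tolerance 0.1 read). Here log2(normalized count + 1) was tested for the 13983 genes whose mean reached 10. The test was limma 3.58.1 (trended prior variance, two-sided), p was adjusted by Benjamini-Hochberg over these genes, and genes under 0.05 were called. For the correction, a robust loess (span 0.3) on GC content and length was removed per library for 13973 genes with both values, from GENCODE M21 coding transcripts. edgeR 4.0.16 and DESeq2 1.42.0 on the recovered reads, other scalings, filters and left-out mice were alternatives. The code was tested on simulated data. The members and the lists were chosen with earlier results of these data known. Named were, beside the members, receptors, kinases and IRF genes, the 2 largest rises and falls of each list among genes past the threshold with a mean of at least 100; some genes of these lists, the remaining STAT genes among them, are not reported one by one here. Differences of libraries within a group exceeded the counting error, with a chi-square per gene of 44.6 (control) and 12.0 (Bmal1 cKO).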

Additional observations from a re-analysis of the deposited data

How the results depend on the processing

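With 2 mice a group, small changes of procedure moved the calls. The 4 members called higher became 2 with library totals for scaling, 1 with the GC and length correction, 1 at an adjusted p under 0.01, 2 at 2-fold or more, and 0 to 3 when 1 mouse was left out. With both the replicate block and the GC correction, the 1 member called lower became 0 (Irf7, adjusted p = 0.0645 by limma) and 4 were called higher: Stat2 (0.0153), Irf9 (0.0395), Ifit2 (0.0139) and Usp18 (0.046). The 42 other pathway genes called higher became 25 at an adjusted p under 0.01, 25 at 2-fold or more and 21 to 33 without 1 mouse, and the 21 called lower became 12 at 0.01 and 11 to 21 without 1 mouse. With library totals they were 33 higher and 26 lower. Over all genes tested, the 4059 called higher became 2291 with the GC correction, 1841 with the block added, 1927 at 2-fold or more and 2654 to 3154 without 1 mouse, and the 3871 called lower became 2377, 1853, 2136 at 0.01 and 2205 to 2852 without 1 mouse. Isg15 was at -0.143 with library totals, a move equal to that of the median gene, and ran from -0.499 to 0.66 without 1 mouse. Apart from that move, the causes were not tested. The mice share only a number in the labels, and the deviations of same-numbered mice correlated at -0.09 over genes. With the number as a replicate block, 7 members were called higher, Ifit1 (adjusted p = 0.0195 by limma), Ifit3 (0.0485) and Usp18 (0.0208) among them. Of the 13983 genes tested, 3899 were called higher and 3789 lower with this block.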
